A study of Mus musculus with 1627 samples.

Results

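The genes described are 34 that encode glucose and lactate transporters, glycolytic enzymes, the oxygen-sensing machinery and targets of the hypoxia response. They were chosen by name, from what their products do, and all 34 have a row among the 23725 genes of the count table. They were followed in Foxp3+ regulatory T cells (Tregs), CD4 T cells that restrain immune responses and that gather in muscle during its repair. Male B6 Foxp3-Ires-Gfp mice, in which green fluorescent protein reports Foxp3, were used at 8 months of age, and every mouse had its muscle injured with cardiotoxin, a venom toxin that destroys muscle fibres, 4 days earlier. Tregs sorted from the injured muscle made up muscle library 1 with 674 cells and muscle library 2 with 694 cells, and Tregs sorted from the spleen made up a single spleen library with 259 cells. The spleen is thus the spleen of injured mice, and no library of uninjured mice was analysed here.

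Live TCRb+ CD4+ GFP+ cells were sorted and profiled with inDrops, a droplet method that primes at the poly(A) tail and counts mRNA molecules by a random tag, the unique molecular identifier (UMI). Spleens were dissociated mechanically and muscles with collagenase and dispase, so handling and tissue cannot be told apart. Since no animal is named in the labels, a tissue counted as 1 sample, no test was possible and no p-value is given. UMIs were summed per library and expressed per 1000000 UMIs of the library (CPM). The sums were 1533277 UMIs in muscle library 1, 1916496 in muscle library 2 and 982570 in spleen. All 95% intervals are exact and hold counting error alone, and UMIs that lie together in a cell make the true error larger. Both muscle folds share the spleen library, so they are not independent of each other. In a library sum, fewer cells with a transcript and less of it per cell cannot be told apart. Foxp3 itself stood at 554 and 552 CPM in the muscle libraries and at 368 CPM in spleen. Of 14 markers of muscle fibres, Myh1, Myh4, Pvalb and Pgam2 had 0 UMIs in every library. The whole list, most of it Acta1 and Eno3, summed to 38.5, 57.4 and 73.3 CPM in muscle library 1, muscle library 2 and spleen. Acta1 had 24.1, 38.6 and 25.4 CPM and Eno3 7.83, 9.39 and 40.7 CPM in this order, so the high spleen sum came from Eno3. Ckm and Tnnc2 had 3 UMIs each, in muscle library 2 only. The 15 myeloid markers summed to 33.3, 28.2 and 67.2 CPM in the same order, with Adgre1, S100a8 and Arg1 at 0. Single myeloid markers went either way, with Spp1 at 22, 5 and 0 UMIs and C1qa at 0, 2 and 18. The muscle libraries shared 11 cell barcodes with each other, muscle library 1 shared 1 with spleen, and muscle library 2 shared 0 with spleen.

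Glycolysis splits glucose into pyruvate in the cytosol and yields ATP without oxygen, and lactate dehydrogenase then turns pyruvate into lactate, which monocarboxylate transporters carry out of the cell. While oxygen is plentiful, the prolyl hydroxylases encoded by Egln1 and Egln3 mark the hypoxia-inducible factor subunit encoded by Hif1a, and the product of Vhl has it destroyed. When oxygen is short, the factor persists, pairs with ARNT and drives the genes of most steps of glycolysis as well as genes that curb the use of oxygen by mitochondria. T cell activation raises glycolysis through mTORC1 also where oxygen is plentiful.

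In Tregs of the injured muscle, the glycolytic steps from aldolase to pyruvate kinase took a larger share of UMIs than in spleen Tregs. The glucose importers and the glucose-trapping hexokinase Hk2 were not higher in both muscle libraries. Hk1, another such hexokinase, was higher in both, at 1.66-fold and 1.82-fold. Glycolytic enzymes took 0.332% of all UMIs in muscle library 1, 0.368% in muscle library 2 and 0.220% in spleen. This was 1.51-fold (95% interval 1.44 to 1.59) and 1.67-fold (1.60 to 1.76) above spleen. The oxygen-sensing genes took 0.0809%, 0.0660% and 0.0422% of UMIs, and the hypoxia targets 0.122%, 0.133% and 0.0968%. Ddit4 alone gave 690 of 1867 target UMIs in muscle library 1, 998 of 2552 in muscle library 2 and 147 of 951 in spleen. The target share thus leans on this gene, and the other targets were not summed without it. The transporters took 0.0214%, 0.0292% and 0.0268%, so the muscle libraries lay on either side of spleen. For scale, a list of 29 nuclear-encoded respiratory chain genes was only 1.09-fold and 1.14-fold above spleen, and 17 genes of the tricarboxylic acid cycle stood at 0.972-fold and 1.03-fold.

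**Figure D1:**
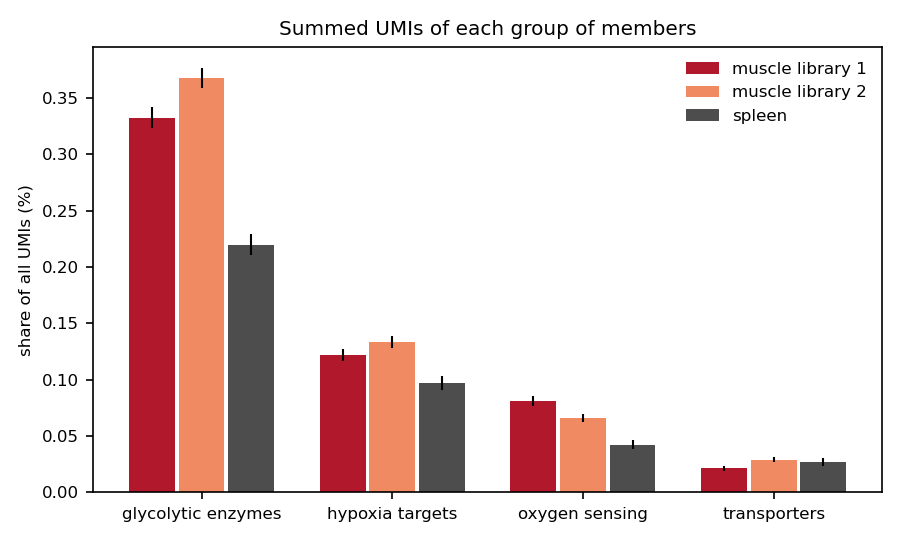
Share of all UMIs (%, bars from 0) taken by the 16 glycolytic enzymes, 10 hypoxia targets, 4 oxygen-sensing genes and 4 transporters in muscle library 1, muscle library 2 and spleen, with exact binomial 95% intervals as error bars. Both muscle bars stand above the spleen bar in the first 3 groups, and lie on either side of it for the transporters.

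To be called, a gene needed 50 UMIs or more in all libraries together and a difference from spleen of 2-fold or more, with the same sign, in muscle library 1 and in muscle library 2. Of the 34 genes, 31 reached 50 UMIs. Aldoa, Tpi1, Pkm, Egln1, Bnip3 and Ddit4 were called higher, and Pdk1 was called lower. These are 19.4% and 3.23% of the 31, where the rule called 7.47% of all 7617 genes higher and 3.45% lower. At 1.5-fold, 12 of the 31 were higher and 4 lower, against 15.9% and 10.8% of all genes. The median of the mean log2 fold was 0.44 over the 31 genes and 0.05 over all genes. Ribosomal protein genes took 13.4%, 13.7% and 22.3% of UMIs in muscle library 1, muscle library 2 and spleen, which lowers every other gene in the spleen CPM. With these genes left out of the totals, the median moved to -0.10 over all genes and to 0.28 over the 31. Only Tpi1 and Ddit4 then remained at or above 2-fold in both libraries, while Pdk1 and Slc16a1 were lower. That is 2 of the 31 in each direction, where 432 of all 7617 genes were higher and 404 lower. Aldoa, Pkm, Egln1 and Bnip3 then stood at 1.85-fold to 1.98-fold in muscle library 1 and at 2.16-fold to 2.34-fold in muscle library 2.

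**Figure D2:**
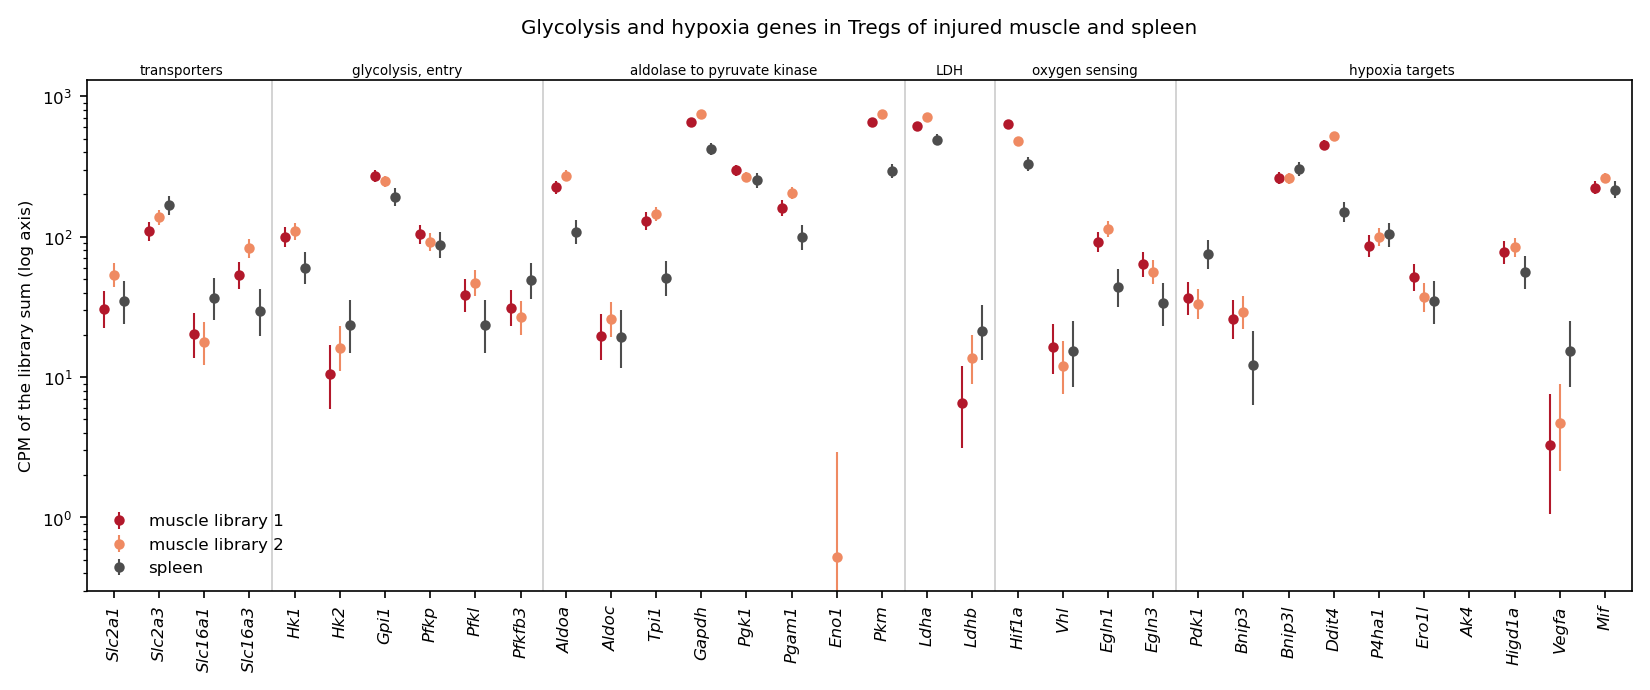
Level of each gene (CPM of the library sum, log axis) in muscle library 1, muscle library 2 and spleen, grouped by role, with exact Poisson 95% intervals. A library with 0 UMIs of a gene has no point. Both muscle points stand above the spleen point for Aldoa, Tpi1, Pkm, Egln1, Bnip3 and Ddit4 and below it for Pdk1.

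All 3 enzymes called higher act between aldolase and pyruvate kinase, where 7 of 8 genes reached 50 UMIs. Tpi1 encodes triosephosphate isomerase, which keeps both products of aldolase in the pathway (chr6:124810586-124814296, minus strand, GRCm38). It had 130 CPM in muscle library 1, 145 CPM in muscle library 2 and 50.9 CPM in spleen. The muscle values lay 2.55-fold (95% interval 1.86 to 3.55) and 2.85-fold (2.10 to 3.93) above spleen. Pkm encodes the pyruvate kinase that closes glycolysis (chr9:59656368-59679375, plus strand). Its levels were 654, 749 and 296 CPM in muscle library 1, muscle library 2 and spleen, or 2.21-fold (1.93 to 2.52) and 2.53-fold (2.23 to 2.88). The 3' end counted here is shared by its splice forms, so these values do not tell the forms apart. Aldoa, the main aldolase of muscle and of proliferating cells, had 225 CPM in muscle library 1, 272 CPM in muscle library 2 and 109 CPM in spleen, or 2.07-fold (1.66 to 2.59) and 2.50-fold (2.03 to 3.11). With the 19 cells of over 3 times their library's median UMI count left out, 12 in muscle library 1 and 7 in muscle library 2, an alternative chosen after seeing the data, Aldoa stood at 1.97-fold in muscle library 1. With every cell thinned to 1000 UMIs, Tpi1 stood at 1.43-fold and 1.73-fold.

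Without these 3 genes the other glycolytic enzymes were still 1.33-fold (1.26 to 1.41) and 1.44-fold (1.37 to 1.53) above spleen. Pgam1, phosphoglycerate mutase, had 160, 204 and 98.7 CPM in muscle library 1, muscle library 2 and spleen, or 1.62-fold and 2.07-fold. Gapdh, the dehydrogenase often used as a constant control gene, had 659 CPM in muscle library 1, 746 CPM in muscle library 2 and 422 CPM in spleen. Its folds were 1.56 (1.39 to 1.75) and 1.77 (1.58 to 1.98). Pgk1, the first enzyme that pays back ATP, had 297, 267 and 252 CPM, and its folds of 1.18 and 1.06 were the smallest among the abundant enzymes of these steps. Aldoc, an aldolase best known from brain, had 19.6 and 26.1 CPM in the muscle libraries and 19.3 CPM in spleen, and both intervals of its fold held 1. With cells thinned to 1000 UMIs Aldoc was called higher, but from 11 and 14 UMIs in the muscle libraries and 1 in spleen.

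Several of these rows share reads with near-identical copies, which limits what a single row measures. The Eno1 row, the enolase of most tissues, held 0 UMIs in muscle library 1, 1 in muscle library 2 and 0 in spleen, where 3 UMIs would be 1.96, 1.57 and 3.05 CPM. The row of its copy Eno1b, which matches the last 400 bases of an Eno1 transcript without a mismatch, held 785, 1070 and 227 UMIs. That is 512 CPM in muscle library 1, 558 CPM in muscle library 2 and 231 CPM in spleen, or 2.22-fold (1.91 to 2.58) and 2.42-fold (2.09 to 2.80). Reads of the 2 genes cannot be told apart there, and the pair together passed the 2-fold rule. Gapdh had 5 copies with UMIs and at least 95% identity, among them Gm12070 with 1517, 2017 and 659 UMIs, more than the Gapdh row itself. Gapdh with its copies came to 2076 CPM in muscle library 1, 2498 CPM in muscle library 2 and 1633 CPM in spleen, a smaller difference of 1.27-fold (1.20 to 1.35) and 1.53-fold (1.45 to 1.62). Aldoa kept its place with its copy Aldoart1 added, at 2.07-fold and 2.50-fold. With all 7 copies counted, the glycolytic enzymes were 1.45-fold (1.39 to 1.5) and 1.65-fold (1.59 to 1.71) above spleen.

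The entry steps gave a mixed picture, and no gene of the 6 passed the 2-fold rule. Hk1, the hexokinase of most resting tissues, had 99.8 CPM in muscle library 1, 109 CPM in muscle library 2 and 60.0 CPM in spleen, or 1.66-fold (1.22 to 2.28) and 1.82-fold (1.35 to 2.47). Hk2, the inducible hexokinase of muscle and activated lymphocytes, went the other way with 10.4, 16.2 and 23.4 CPM. That is 2.24-fold lower (1.13 to 4.54) in muscle library 1 and 1.45-fold lower (0.806 to 2.56) in muscle library 2, from only 16, 31 and 23 UMIs. Pfkl, the liver-type phosphofructokinase subunit, had 38.5, 47.0 and 23.4 CPM, while Pfkp, the platelet-type subunit, had 104, 91.8 and 87.5 CPM. Pfkfb3, whose product makes the activator of phosphofructokinase, was lower in both muscle libraries, at 31.3 and 26.6 CPM against 48.9 CPM in spleen. Its difference was 1.56-fold lower (1.02 to 2.38) and 1.84-fold lower (1.21 to 2.78). Gpi1, the isomerase between hexokinase and phosphofructokinase, had 271 and 249 CPM in the muscle libraries and 191 CPM in spleen.

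**Figure D3:**
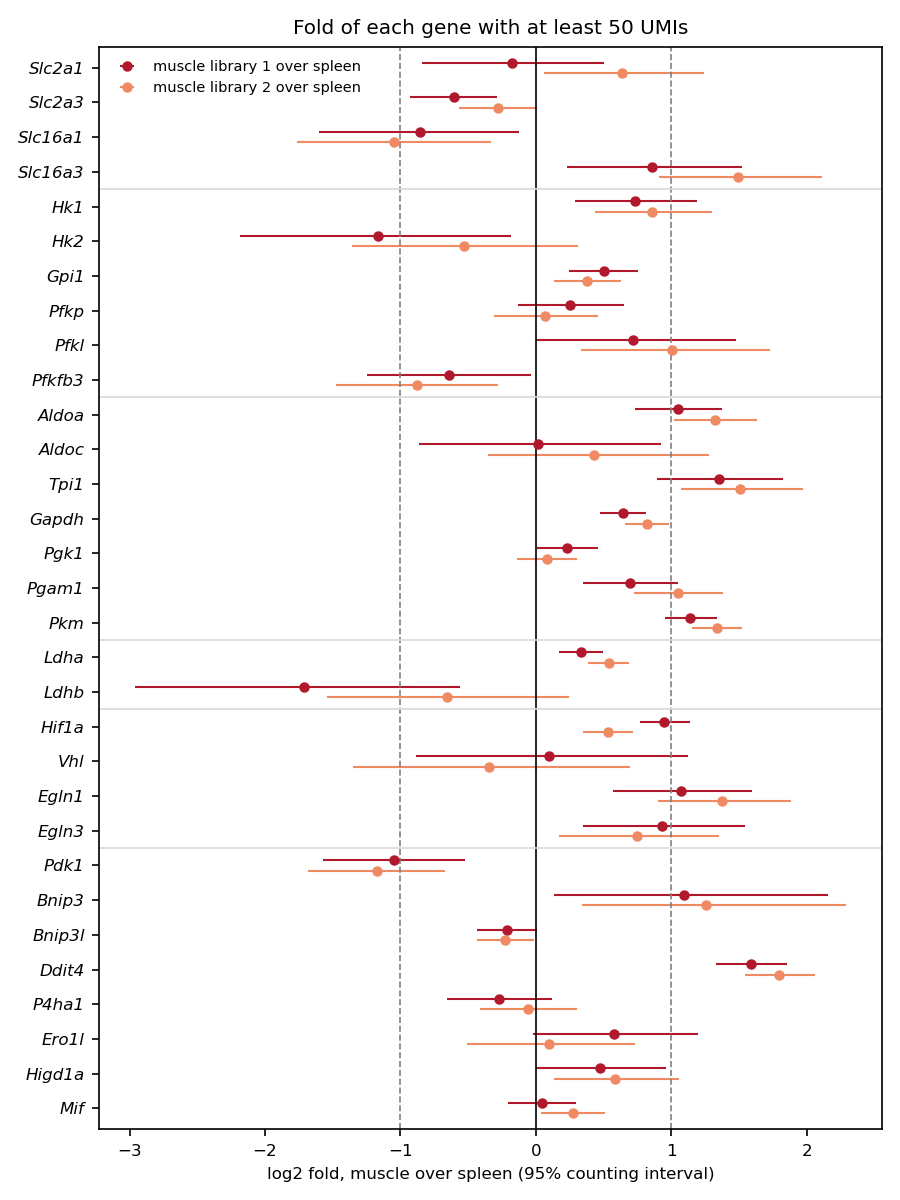
Log2 fold of muscle library 1 and of muscle library 2 over spleen for the 31 genes with at least 50 UMIs, grouped by role, with exact 95% counting intervals and dashed lines at 2-fold in each direction. Tpi1, Pkm, Aldoa, Egln1, Bnip3 and Ddit4 have both points right of the upper line, and Pdk1 has both left of the lower line.

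The 2 lactate dehydrogenase subunits differed in direction. Ldha, which favours lactate, had 619 CPM in muscle library 1, 714 CPM in muscle library 2 and 492 CPM in spleen, or 1.26-fold (1.13 to 1.41) and 1.45-fold (1.31 to 1.62). Ldhb, which favours pyruvate, had 6.52, 13.6 and 21.4 CPM from 10, 26 and 21 UMIs. It was 3.28-fold lower (1.48 to 7.79) in muscle library 1 and 1.58-fold lower (0.843 to 2.91) in muscle library 2, so only muscle library 1 lay below spleen by more than its interval.

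The lactate transporters also parted. Slc16a3, the lactate exporter of glycolytic cells, had 53.5 CPM in muscle library 1, 83.0 CPM in muscle library 2 and 29.5 CPM in spleen. It stood 1.81-fold (1.17 to 2.87) and 2.81-fold (1.88 to 4.33) above spleen. Slc16a1, which carries lactate either way, had 20.2 and 17.7 CPM in the muscle libraries and 36.6 CPM in spleen, or 1.81-fold lower (1.09 to 3.03) and 2.07-fold lower (1.26 to 3.40). The glucose importers showed no common direction. Slc2a1, the broad glucose importer, had 30.7 CPM in muscle library 1, 53.7 CPM in muscle library 2 and 34.6 CPM in spleen, and muscle library 2 was 1.75-fold (1.23 to 2.53) above muscle library 1. Slc2a3, the high-affinity importer of neurons and lymphocytes, had 110, 137 and 167 CPM, so both muscle values were below spleen. Its interval left out 1 in muscle library 1 only, at 1.52-fold lower (1.22 to 1.90) against 1.22-fold lower (0.995 to 1.48) in muscle library 2.

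Of the oxygen-sensing genes, Egln1 was called higher. Its product is the main hydroxylase that reads the oxygen level and is itself induced by the hypoxia-inducible factor (chr8:124908587-124949324, minus strand). Egln1 had 92.0 CPM in muscle library 1, 114 CPM in muscle library 2 and 43.8 CPM in spleen, or 2.10-fold (1.48 to 3.03) and 2.60-fold (1.87 to 3.69). Its call was lost with equal weight per cell, at 1.86-fold and 2.53-fold, and with cells thinned to 1000 UMIs, at 1.93-fold and 2.89-fold, and with equal weight Egln3 was called in its place. Egln3, a hydroxylase with strong induction by hypoxia, had 63.9 and 56.4 CPM in the muscle libraries and 33.6 CPM in spleen, or 1.90-fold (1.27 to 2.92) and 1.68-fold (1.13 to 2.56). Its 33 spleen UMIs came from 9 cells, 12 of them from a single cell. Hif1a itself had 637, 477 and 330 CPM in muscle library 1, muscle library 2 and spleen, or 1.93-fold (1.70 to 2.20) and 1.45-fold (1.27 to 1.65). The muscle libraries differed from each other in Hif1a, with library 1 1.33-fold (1.22 to 1.46) above library 2. Vhl, which takes the factor to its destruction, had 25, 23 and 15 UMIs, too few to show a difference at this depth.

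Among the 10 hypoxia targets, of which 8 reached 50 UMIs, 2 were higher and 1 lower, where 7.47% and 3.45% of all genes were. Ddit4, which encodes an inhibitor of mTORC1 that glucocorticoids and other stresses induce as well, showed the largest fold of the 31 genes (chr10:59949669-59951834, minus strand). It had 450 CPM in muscle library 1, 521 CPM in muscle library 2 and 150 CPM in spleen. The folds were 3.01 (2.51 to 3.62) and 3.48 (2.92 to 4.17), and Ddit4 was called higher under each of the 14 alternatives. Bnip3, which marks mitochondria for autophagy, had 26.1, 29.2 and 12.2 CPM, or 2.14-fold (1.10 to 4.47) and 2.39-fold (1.27 to 4.90). Its 12 spleen UMIs came from only 4 cells, and with the 19 cells of highest UMI count left out Bnip3 stood at 1.93-fold and 2.16-fold. With cells thinned to 1000 UMIs it stood at 1.20-fold and 1.63-fold, with 3 UMIs left in spleen. Its paralog Bnip3l, of the same role, had 263 and 260 CPM in the muscle libraries and 304 CPM in spleen.

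Pdk1 was lower in muscle. It encodes a kinase that shuts pyruvate dehydrogenase and so keeps pyruvate out of the mitochondria (chr2:71873224-71903858, plus strand). Pdk1 had 36.5 CPM in muscle library 1, 33.4 CPM in muscle library 2 and 75.3 CPM in spleen, or 2.06-fold lower (1.44 to 2.97) and 2.26-fold lower (1.59 to 3.20). Without the 19 cells of highest UMI count it was 1.94-fold lower in muscle library 1 and 2.45-fold lower in muscle library 2. Vegfa, the endothelial growth factor, had 5, 9 and 15 UMIs, or 3.26, 4.70 and 15.3 CPM, and stayed below the UMI minimum. Ak4, a mitochondrial adenylate kinase, had 0 UMIs in every library. The other 4 targets differed less. P4ha1, a collagen prolyl hydroxylase subunit, had 86.1 and 99.7 CPM in the muscle libraries and 104 CPM in spleen, and Mif, a cytokine, had 224, 262 and 217 CPM. Ero1l, an oxidase of the endoplasmic reticulum, had 51.5, 37.0 and 34.6 CPM, and Higd1a, a mitochondrial inner membrane protein, had 77.6, 84.0 and 56.0 CPM.

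The hypoxia-inducible factor binds DNA around the letters ACGTG or GCGTG. The 250 bases before the RefSeq start sites (GRCm38.p6) were searched for these letters on both strands, where CACGT and CACGC are the same motifs on the other strand and CACGTG holds an overlapping pair. At least 1 match stood before a start site of 28 of the 32 genes with an entry, or 87.5%, against 41.5% of all 27025 genes in the promoter table. The promoters of these genes were richer in G and C, at a median of 63.4% against 52.4%, and 59.6% of all single promoters within 5 percentage points of that median held a match, against 80.4% of the 46 single promoters here. The presence of a match did not separate the genes by direction, since 5 of the 6 higher genes, the lower gene Pdk1 and 22 of the 25 others had one. Shown are the promoters of 3 higher genes with matches, of the lower gene Pdk1 and of Tpi1, a higher gene with none, each 5' to 3' on the gene's strand, with the matches in capitals.
Bnip3, chr7:138909507-138909756, minus strand: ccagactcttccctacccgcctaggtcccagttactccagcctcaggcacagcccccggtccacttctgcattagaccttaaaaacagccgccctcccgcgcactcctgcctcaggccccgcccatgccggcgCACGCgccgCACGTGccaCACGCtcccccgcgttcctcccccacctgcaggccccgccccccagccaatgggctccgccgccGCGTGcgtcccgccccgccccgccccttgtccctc
Ddit4, chr10:59951771-59952020, minus strand: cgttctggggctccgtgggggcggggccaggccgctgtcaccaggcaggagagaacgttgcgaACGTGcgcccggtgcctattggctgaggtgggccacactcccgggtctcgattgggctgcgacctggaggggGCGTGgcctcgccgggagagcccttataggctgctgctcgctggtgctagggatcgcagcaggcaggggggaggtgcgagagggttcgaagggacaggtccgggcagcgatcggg
Egln1, chr8:124949255-124949504, minus strand: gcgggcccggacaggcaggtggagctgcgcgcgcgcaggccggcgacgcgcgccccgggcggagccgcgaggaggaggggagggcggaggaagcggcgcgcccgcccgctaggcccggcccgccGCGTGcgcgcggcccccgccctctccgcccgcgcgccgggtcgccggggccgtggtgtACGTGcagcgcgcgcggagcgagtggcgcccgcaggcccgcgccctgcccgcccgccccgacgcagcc
Pdk1, chr2:71872974-71873223, plus strand: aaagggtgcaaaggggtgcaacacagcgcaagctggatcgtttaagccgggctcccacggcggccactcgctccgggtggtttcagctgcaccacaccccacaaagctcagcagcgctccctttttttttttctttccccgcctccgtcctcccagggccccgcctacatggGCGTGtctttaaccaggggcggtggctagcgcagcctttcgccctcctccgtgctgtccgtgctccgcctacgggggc
Tpi1, chr6:124814159-124814408, minus strand: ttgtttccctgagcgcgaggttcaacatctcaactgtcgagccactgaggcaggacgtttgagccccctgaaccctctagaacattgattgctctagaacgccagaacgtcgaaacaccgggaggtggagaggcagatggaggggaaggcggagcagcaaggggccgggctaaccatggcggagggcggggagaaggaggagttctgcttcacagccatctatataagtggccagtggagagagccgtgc
Bnip3 held 5 matches, Ddit4 and Egln1 2 each and this promoter of Pdk1 1. The stretches of Tpi1, Egln1, Ddit4 and Bnip3 lie partly inside the gene spans of the annotation used for the coordinates. Whether and where a match is found thus depends on the start site used. A match is a run of letters and not a measured binding site.

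Other genes of the same pathways gave calls that can be read against the 7.47% of all genes that were higher and the 3.45% that were lower. Of 27 further isozymes and regulators of glycolysis, 6 reached 50 UMIs, 0 were higher and 1 was lower. That gene was Eno3, the enolase of muscle fibres, with 7.83 and 9.39 CPM in the muscle libraries and 40.7 CPM in spleen. All 7 genes of the pentose phosphate pathway and all 29 of the respiratory chain list were measured, and 0 of either were called. Of 9 measured genes for pyruvate entry into mitochondria, only Pdk4, a kinase of the same family as Pdk1, was called, and it too was lower at 18.3 and 21.4 CPM against 53.9 CPM in spleen. Sucla2, a subunit of succinyl-CoA ligase, was the only one called of 17 tricarboxylic acid cycle genes, at 66.5 and 41.7 CPM against 17.3 CPM in spleen.

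The partners and further targets of the hypoxia-inducible factor held 4 called genes. Of 10 measured genes of the oxygen-sensing machinery, 1 was higher and 1 lower. Arnt2, which encodes a partner known mainly from neurons, had 87.4 CPM in muscle library 1, 111 CPM in muscle library 2 and 15.3 CPM in spleen, or 5.72-fold (3.35 to 10.5) and 7.28-fold (4.32 to 13.2). Cited2, whose product keeps the factor from its coactivators, was lower at 182 and 90.8 CPM in the muscle libraries against 399 CPM in spleen. Arnt, the general partner, was not called, with 32.6, 40.7 and 48.9 CPM in muscle library 1, muscle library 2 and spleen. Among 15 measured further targets 2 were higher and 0 lower, where 7.47% and 3.45% of all genes were. Hilpda, a lipid droplet protein, had 325, 367 and 126 CPM, or 2.58-fold (2.11 to 3.17) and 2.91-fold (2.40 to 3.55), while Kdm4b, a histone demethylase, rested on 8 UMIs in spleen. Of 15 measured genes of mTORC1 and its regulators, 1 was higher, Lamtor1, a lysosomal anchor of the complex, with 103 and 110 CPM in the muscle libraries and 40.7 CPM in spleen.

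Over single cells, the glycolytic enzyme sum was higher on average in the muscle libraries. Whether all cells or only some of them differed was not tested. Each cell was thinned to 1000 UMIs, which left out 26 cells of muscle library 1, 7 of muscle library 2 and 0 of spleen. A thinned cell then held a mean of 3.10, 3.39 and 1.99 glycolytic enzyme UMIs in muscle library 1, muscle library 2 and spleen, and a median of 3, 3 and 2. Cells with 0 such UMIs made up 8.95% and 10.2% of the muscle libraries and 23.2% of spleen. The variance over the mean of this sum was 1.65, 2.10 and 1.83. For single genes of at least 200 UMIs, the median of the same ratio was 1.42, 1.57 and 1.63 and the 90th percentile 1.94, 2.15 and 2.33. Gapdh was among the more even members, at 1.11, 1.17 and 1.27, as was Pkm at 1.11, 1.43 and 1.17. Ddit4 was spread less evenly, at 2.23, 2.03 and 1.81, and the highest cell held 17 Ddit4 UMIs in muscle library 1, 31 in muscle library 2 and 16 in spleen.

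**Figure D4:**
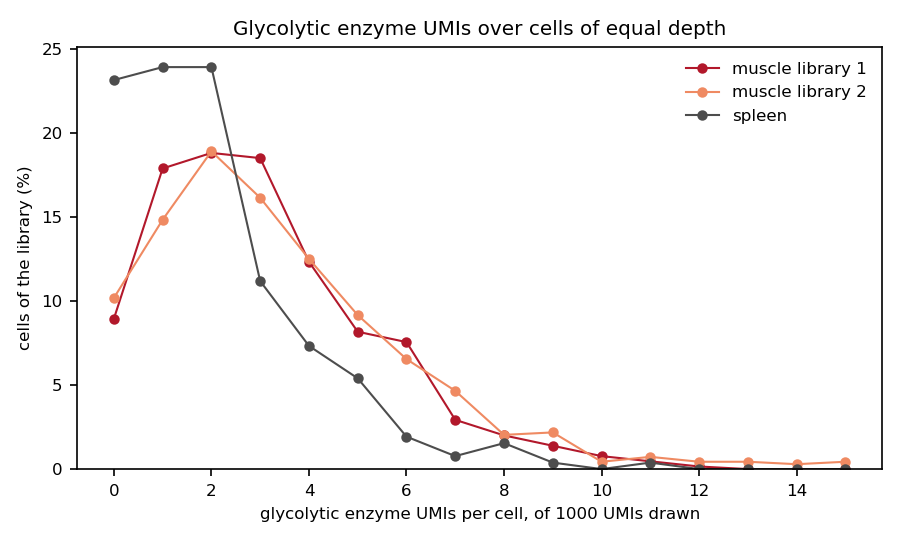
Share of cells (%) by the number of glycolytic enzyme UMIs among 1000 UMIs drawn from each cell, for 648 cells of muscle library 1, 687 of muscle library 2 and 259 of spleen. The muscle curves peak at 2 UMIs and reach further right. The spleen curve is highest at 1 and at 2 UMIs, with 23.9% of cells at each, and 23.2% of spleen cells have 0.

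Within each library the members were then compared between cells with and without fixed lists of other genes, none of which is a member. Cells with at least 2 UMIs of a list among 1000 were set against cells with 0, and such classes are ranges of a score, not cell types. The effector list (Gzmb, Il1rl1, Klrg1 and 7 more) marked 529 cells of muscle library 1, 541 of muscle library 2 and 59 of spleen, against 61, 84 and 163 cells without it. Glycolytic enzymes were higher in the cells with the list in each library, by 1.21-fold (1.09 to 1.36), 1.20-fold (1.11 to 1.31) and 1.35-fold (1.22 to 1.49) in muscle library 1, muscle library 2 and spleen. Hypoxia targets were higher by 1.25-fold (1.04 to 1.51), 1.67-fold (1.43 to 1.97) and 1.51-fold (1.31 to 1.73). With the list, Ddit4 gave 623 of 1597, 872 of 2133 and 64 of 344 target UMIs in the same order. Without the list it gave 21 of 124, 44 of 170 and 71 of 480. The other targets were not summed by class without Ddit4. The activation list (Tnfrsf4, Cd83, Nr4a1 and 8 more, with Tnfrsf9 in both lists) marked 494, 534 and 124 cells against 64, 75 and 85 without it, and glycolytic enzymes were higher there by 1.41-fold (1.25 to 1.58), 1.33-fold (1.21 to 1.46) and 1.31-fold (1.19 to 1.46). The respiratory chain list differed less, at 1.05-fold to 1.13-fold for the effector list and 1.02-fold to 1.04-fold for the activation list. For both lists, cells with the list had a higher median UMI count than cells without it in every library. In muscle library 1, muscle library 2 and spleen, medians with the effector list were 2053, 2543 and 4269, against 1869, 2268.5 and 3260 without. With the activation list they were 2058, 2537.5 and 3605.5, against 1746.5, 2161 and 3388. The part of depth in these values was not tested.

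Few single genes differed by at least 1.5-fold in every library. With the effector list, Aldoc, Tpi1 and Ddit4 were higher, or 3 of 31, where 2.84% of all genes were, and 0 were lower, where 1.86% of all genes were. Aldoc rested on 28 against 1 UMIs, 48 against 1 and 3 against 2 in muscle library 1, muscle library 2 and spleen. Where calls needed more than 3 UMIs on 1 side in every library, an alternative chosen after seeing the data, Aldoc dropped out and 2 of 30 were higher, against 2.78% of all genes. Ddit4 had 493 CPM in effector-list cells against 171 CPM without the list in muscle library 1, 565 against 214 CPM in muscle library 2 and 240 against 127 CPM in spleen. Tpi1 was 1.53-fold (0.837 to 3.13), 3.32-fold (1.78 to 7.01) and 4.05-fold (2.05 to 8.36) higher. With the activation list, Slc16a3 and Aldoa were higher, or 2 of 31, against 2.99% of all genes, and 0 were lower, against 1.5% of all genes. Slc16a3 had 79 UMIs with the list against 1 without in muscle library 1, 142 against 7 in muscle library 2 and 19 against 5 in spleen. Aldoa stood at 2.04-fold (1.21 to 3.68), 1.81-fold (1.24 to 2.76) and 2.54-fold (1.5 to 4.53). Ddit4 followed the activation list in muscle, by 2.39-fold (1.61 to 3.68) and 2.08-fold (1.56 to 2.83), while in spleen it stood at 0.974-fold (0.665 to 1.44), and the difference between tissues was not tested.

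**Figure D5:**
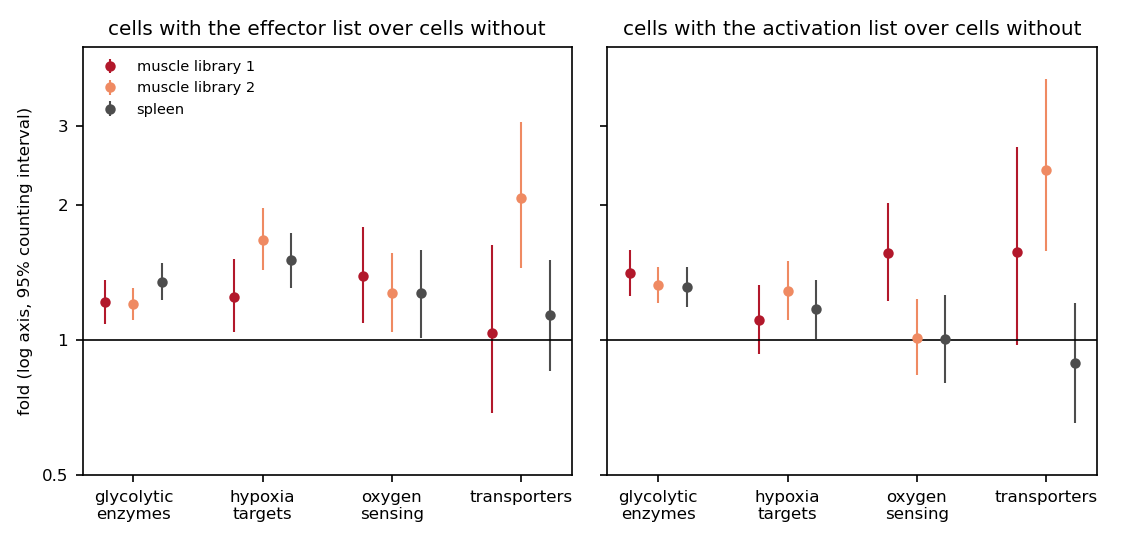
Fold (log axis) of the summed UMIs of each group of genes in cells with the effector list (left) or the activation list (right) over cells without it, within muscle library 1, muscle library 2 and spleen, with exact 95% counting intervals. Glycolytic enzymes lie above 1 in every library for both lists, between 1.20 and 1.41.

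The share of effector-list cells was larger in muscle, so muscle and spleen were also compared within the classes, an alternative added after seeing the data. Among cells with the effector list, glycolytic enzymes were 1.31-fold (1.21 to 1.42) and 1.43-fold (1.32 to 1.55) above spleen. Among cells without it the folds were 1.46 (1.29 to 1.65) and 1.61 (1.45 to 1.77). Hypoxia targets gave 0.978-fold (0.870 to 1.10) and 1.07-fold (0.954 to 1.20) with the effector list, and 1.18-fold (0.959 to 1.44) and 0.962-fold (0.803 to 1.15) without it. Each interval for the hypoxia targets thus held 1 when cells were split by the effector list, but not when they were split by the activation list. In effector-list cells this sum joined genes that went opposite ways. Ddit4 was higher, as given below. Bnip3l stood at 0.647-fold in both libraries (0.521 to 0.808 and 0.524 to 0.804). Mif stood at 0.711-fold (0.556 to 0.917) and 0.795-fold (0.628 to 1.02). Among cells with the activation list, hypoxia targets stood at 1.19-fold (1.07 to 1.32) and 1.35-fold (1.22 to 1.49), and among cells without it at 1.25-fold (1.01 to 1.54) and 1.22-fold (1.01 to 1.48). Glycolytic enzymes stood at 1.44-fold (1.35 to 1.53) and 1.58-fold (1.48 to 1.68) with the activation list, and at 1.34-fold (1.16 to 1.54) and 1.56-fold (1.38 to 1.77) without it. Pkm stood at 1.56-fold (1.28 to 1.91) and 1.77-fold (1.46 to 2.17) with the effector list and at 2.21-fold (1.61 to 3.0) and 2.65-fold (2.07 to 3.41) without it. Ddit4 stood at 2.05-fold (1.58 to 2.70) and 2.35-fold (1.82 to 3.08) with the effector list, and at 1.35-fold (0.787 to 2.22) and 1.68-fold (1.13 to 2.49) without it, where the interval of muscle library 1 held 1. Pdk1, called lower over all cells, had 34.0 and 29.8 CPM in effector-list cells of the muscle libraries and 33.8 CPM in those of spleen, the last from 9 UMIs. Without the effector list it had 1 and 6 UMIs in the muscle libraries and 50 UMIs, or 89.4 CPM, in spleen. Among activation-list cells Pdk1 was 2.03-fold lower (1.28 to 3.21) and 2.50-fold lower (1.58 to 3.93), from 45 and 47 UMIs in the muscle libraries and 37 in spleen.

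Single marker genes of muscle Tregs split a few members. In muscle library 1 and muscle library 2, 313 and 292 cells had at least 1 UMI of Gzmb, which encodes granzyme B, among 1000. Of 28 members 3 were at least 1.5-fold higher in them than in cells without one, where 1.99% of all genes were, and 0 were lower, where 2.57% were. Aldoc had 34.5 CPM in Gzmb cells against 5.29 CPM in the others of muscle library 1, and 41.8 against 14.0 CPM in muscle library 2. Ddit4 stood at 1.55-fold (1.33 to 1.81) and 1.59-fold (1.40 to 1.81), and Slc2a3 at 1.55-fold (1.11 to 2.16) and 1.5-fold (1.17 to 1.93). In cells with Il1rl1, which encodes the interleukin-33 receptor, 0 of 28 members were higher, where 2.91% of all genes were. Only Pdk1 was lower, where 6.77% of all genes were, from 5 UMIs in either library and with both intervals holding 1. Glycolytic enzymes summed to 0.938-fold (0.887 to 0.991) in Gzmb cells of muscle library 1 and 1.02-fold (0.977 to 1.07) in those of muscle library 2. In Il1rl1 cells the sums stood at 1.01-fold (0.928 to 1.09) and 0.856-fold (0.792 to 0.924). Cells without the effector list numbered 61 and 84 in the muscle libraries, but 335 and 395 lacked Gzmb and 562 and 605 lacked Il1rl1. Cells that lack 1 of these genes can hold others of the list. These sums are therefore not comparable with those of the effector list.

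Cycling cells, 29 in muscle library 1 and 42 in muscle library 2, had less Hif1a than cells without the cycling list, at 349 against 632 CPM and 288 against 506 CPM. Both intervals left out 1, at 1.81-fold lower (1.26 to 2.70) and 1.76-fold lower (1.25 to 2.56). Hif1a and Slc16a1, the other with 1 UMI in the cycling cells of each library, were the 2 of 28 members at least 1.5-fold lower there, where 7.21% of all genes were. Bnip3, from 3 and 4 UMIs, was the 1 member higher, where 6.44% of all genes were. Glycolytic enzymes summed to 1.17-fold (1.04 to 1.31) and 1.09-fold (0.986 to 1.20) in the cycling cells. With the list of resting genes, the glycolytic enzymes stood at 0.906-fold (0.848 to 0.969), 0.794-fold (0.750 to 0.841) and 0.958-fold (0.865 to 1.06) in muscle library 1, muscle library 2 and spleen. There 0 of 29 members were higher and only Slc16a1 was lower, where 0.995% and 1.46% of all genes were.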

How the data were processed

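The authors deposited raw UMI counts per gene and cell, and every value here was computed from these counts. The submitters' processing notes name mm10, TopHat2 and SAMtools without versions. No annotation, strand setting or cell filter is given in the sources used here. Cells were assigned to libraries by the labels, all were kept, and no doublet caller was run on this sort of a single cell type. The median cell held 1976, 2488 and 3541 UMIs in muscle library 1, muscle library 2 and spleen. Folds carry exact conditional binomial (Clopper-Pearson) intervals, levels exact Poisson and shares exact binomial intervals. The 2-fold rule is no test. No fold between tissues is given where both sides were at or below 3 counts. Thinning drew 1000 UMIs per cell without replacement, and classes under 20 cells were not used. The genes, lists and rules were chosen with earlier results of these data known. All 34 genes are named, others where they passed the rule in a fixed list or serve as checks, and Eno1b, Aldoart1, Gm12070 and Arnt were named after their values were seen. Coordinates come from GENCODE M21 on GRCm38, where 33 of the 34 symbols matched 1 gene and Aldoa matched 2. Copies were sought with BLAST 2.17.0 from the last 400 bases of the protein-coding transcripts of these genes, at 95% identity over 200 bases. Promoters came from RefSeq. A planned comparison of paralog proteins was not run. Alternatives covered scaling (edgeR 4.0.16 TMM and DESeq2 1.42.0 size factors, used as factors only, and totals without ribosomal protein genes), cell weight, thinning, UMI minimum, fold and each muscle library alone. Python 3.11.15, scipy 1.17.1 and R 4.3.3 were used.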

Additional observations from a re-analysis of the deposited data

Results flagged for a closer look

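Egln3 was the gene whose tie to the activation list pointed opposite ways in the tissues by at least 2-fold. In cells with the list over cells without it, Egln3 was 2.97-fold (95% counting interval 0.982 to 14.7) in muscle library 1 and 2.83-fold (1.07 to 10.6) in muscle library 2, from 84 and 99 UMIs with the list and 3 and 4 without. In spleen the fold was 0.278 (0.0968 to 0.715), from 7 UMIs with the list and 16 without. Of those 16 UMIs, 12 lay in a single spleen cell. With the cell holding the most Egln3 UMIs left out of each library, an alternative chosen after seeing the data, the spleen fold was 1.09 (0.277 to 5.08), from 7 against 4 UMIs, so the opposite direction rested on that cell. The muscle folds were then 2.97 and 2.64. The difference between the tissues was not tested, and the tissues differed in the number of cells without the list, 64 and 75 in the muscle libraries and 85 in spleen.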

How the results depend on the processing

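The 6 genes higher and 1 lower became 2 and 2 without ribosomal protein genes in the totals, 12 and 4 at 1.5-fold and 4 and 0 without the 19 cells of highest UMI count. With copies added the count was 7 and 1, and 6 and 1 with TMM factors, DESeq2 size factors or without shared barcodes. With equal weight per cell 6 were higher, Egln3 in place of Egln1, and 2 lower. With thinned cells the 6 higher were Slc16a3, Aldoa, Aldoc, Pgam1, Pkm and Ddit4, so Tpi1, Egln1 and Bnip3 lost their calls, and 3 were lower. Lower genes numbered 2 at 10 UMIs or without a minimum, and 0 at 200 UMIs. With 1 muscle library left out, 6 to 9 genes were higher and 2 to 3 lower. No called gene turned its direction. Over all 7617 genes, 569 were higher and 263 lower. These counts became 987 and 606 at 10 UMIs, 211 and 66 at 200 UMIs and 993 and 1121 with no minimum. They were 1208 and 825 at 1.5-fold, and 788 to 833 and 525 to 530 with 1 muscle library. TMM gave 564 and 262, DESeq2 scaling 536 and 292, and removal of shared barcodes 567 and 265. Added copies gave 570 and 263, and removal of the 19 cells of highest UMI count 566 and 272. Equal weight per cell gave 642 and 326, and thinned cells 803 and 376. The 6 members higher with thinned cells thus stood against more higher genes than in the main setting. Without ribosomal protein genes 404 were lower and 432 higher, so higher genes were 51.7% of calls against 68.4%, and the glycolytic enzymes stood at 1.36-fold and 1.51-fold. The folds of glycolytic enzymes by class stayed within their intervals under each class alternative. Thinning moved Aldoc most, to a mean log2 fold of 2.27 against 0.22, from 1 UMI left in spleen. Among uncalled genes, thinning gave Hk2 a mean log2 fold of 0.00 against -0.85, Pfkp -0.30 against 0.16 and Vhl 0.77 against -0.13, and the cause was not tested. Depth limits Hk2, Pfkl, Aldoc, Ldhb, Vhl, Vegfa and Bnip3, each with 12 to 23 UMIs in spleen. Without the spleen cell of most Egln3 UMIs, the spleen fold of Egln3 by the activation list was 1.09 against 0.278. No paired analysis was possible because the result comes from no test and spleen is 1 library.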
